A study of Homo sapiens with 16 samples.

Results

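Baseline gene expression of K562, an erythroid leukemia line driven by BCR-ABL, was compared with that of MOLM13 and THP1, a pair of monocytic leukemia lines that carry MLL-AF9, a fusion of the histone methyltransferase gene MLL to AF9. The comparison takes the 6 of 16 RNA-seq libraries that the labels assign to these lines, 2 of K562 and 4 of MLL-AF9 lines (2 of MOLM13 and 2 of THP1). Each line had 1 library with the 3R peptide, which does not bind DPY30, and 1 with the Y518R peptide, which does. DPY30 belongs to the core of all SET1/MLL complexes, which methylate histone H3 on lysine 4. No library was free of peptide, so baseline here means with either peptide, and the peptide entered the fit as a covariate. All lines grew in Advanced RPMI medium with fetal bovine serum, and polyadenylated RNA was sequenced. How long and at what dose the peptides were given is not stated in the labels. K562 is a single line, and the 2 libraries of a line share that line and differ in peptide, so the p-values below are too small for a statement about BCR-ABL or erythroid lines in general.

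Red cells and monocytes descend from a shared progenitor. In textbook outline, GATA1 with its partners TAL1, LMO2, LDB1 and KLF1 turns on globin, heme and red cell membrane genes, whereas PU.1 (encoded by SPI1) with the C/EBP factors turns on the granule, receptor and signalling genes of monocytes and granulocytes. GATA1 and PU.1 are known to oppose each other. MLL fusions are known to keep HOXA genes and MEIS1 active, and BCR-ABL is a tyrosine kinase known to signal through STAT5.

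The lineages named above for these lines were checked against markers. The values of a line are always given with the 3R library first and the Y518R library second, in counts per 1000000 reads assigned to genes (CPM, with trimmed mean of M-values scaling). GATA1 was at 265 and 315 CPM in K562, 0.293 and 0.19 in MOLM13, and 0.0903 and 0 in THP1. HBG1, the fetal gamma-globin gene that serves as the other erythroid marker, was at 1682 and 1768 in K562 and between 0.544 and 0.714 in the 4 MLL-AF9 libraries. KLF1 and ALAS2 were likewise far higher in both K562 libraries. SPI1 was at 192 and 207 CPM in MOLM13, 325 and 254 in THP1, and 23.8 and 24.7 in K562. LYZ, CSF1R and ITGAM were also lower in both K562 libraries than in any MLL-AF9 library. CD14, the defining monocyte surface marker, was low in MOLM13 at 1.51 and 1.95 CPM, stood at 4.12 and 16.6 in THP1, and was at 0.0819 and 0.126 in K562. An exact 2-sided permutation test over the 6 libraries gave p = 0.133 for GATA1, HBG1, SPI1 and DPY30 alike, the smallest value that 15 arrangements allow.

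Proximal promoters are printed for a few genes that set the groups apart, picked because they hold short sequences these factors are known to recognize. Each stretch is the 250 bases before the RefSeq start of the gene (GRCh38.p14), 5′ to 3′ on the gene's strand. The genes have the widest gap between groups among the called members searched, with 1 listed promoter that holds the sequence. The first 3 come from the heme and membrane lists, the last 2 from the myeloid factor, surface and granule lists. The globin list and 1 chromosome were not searched. Capitals in the first 3 mark GATAA, the core of a GATA site, and CACCC, the box bound by KLF factors, each on either strand. Capitals in the last 2 mark GAGGAA, the core of a PU.1 site, on either strand. RHAG (chr6:49636840-49637089, minus strand) encodes the Rh-associated glycoprotein, KEL (chr7:142962364-142962613, minus strand) the Kell blood group protein and ALAS2 (chrX:55030978-55031227, minus strand) the erythroid enzyme that starts heme synthesis. CTSG (chr14:24576251-24576500, minus strand) encodes cathepsin G and LILRB4 (chr19:54662735-54662984, plus strand) an inhibitory receptor of myeloid cells.
RHAG: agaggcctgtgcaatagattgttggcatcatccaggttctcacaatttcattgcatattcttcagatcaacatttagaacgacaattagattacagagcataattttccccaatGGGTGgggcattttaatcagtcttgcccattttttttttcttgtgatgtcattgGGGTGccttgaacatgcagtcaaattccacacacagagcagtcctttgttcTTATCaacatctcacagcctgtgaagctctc
KEL: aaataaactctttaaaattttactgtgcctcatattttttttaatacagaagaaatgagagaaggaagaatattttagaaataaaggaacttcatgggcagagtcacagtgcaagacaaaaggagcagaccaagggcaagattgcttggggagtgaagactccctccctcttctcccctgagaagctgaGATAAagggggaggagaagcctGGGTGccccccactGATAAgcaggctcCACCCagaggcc
ALAS2: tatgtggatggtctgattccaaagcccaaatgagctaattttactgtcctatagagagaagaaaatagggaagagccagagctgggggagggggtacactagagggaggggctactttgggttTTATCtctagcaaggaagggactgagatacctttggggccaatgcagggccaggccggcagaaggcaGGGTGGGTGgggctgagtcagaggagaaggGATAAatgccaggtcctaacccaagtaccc
CTSG: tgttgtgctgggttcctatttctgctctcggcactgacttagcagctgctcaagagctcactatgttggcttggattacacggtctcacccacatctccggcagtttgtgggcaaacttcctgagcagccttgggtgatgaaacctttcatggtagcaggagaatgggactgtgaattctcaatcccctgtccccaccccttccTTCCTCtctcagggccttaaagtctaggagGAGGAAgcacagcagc
LILRB4: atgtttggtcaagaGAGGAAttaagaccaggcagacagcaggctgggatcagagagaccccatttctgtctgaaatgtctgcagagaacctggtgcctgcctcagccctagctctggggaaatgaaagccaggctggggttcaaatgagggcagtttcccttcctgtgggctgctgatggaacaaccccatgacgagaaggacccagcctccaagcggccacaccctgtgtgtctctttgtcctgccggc

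RHAG stood at 584 and 601 CPM in K562 and at most 0.373 in an MLL-AF9 library, KEL at 59.5 and 82 against at most 0.0837, and ALAS2 at 132 and 170 against at most 0.628. CTSG ran the other way, with 646 and 786 in MOLM13, 2878 and 596 in THP1, and 1.23 and 0.504 in K562. LILRB4 was at 69.8 and 77.5 in MOLM13, 155 and 156 in THP1, and 0.123 and 0.158 in K562. Among the globin, heme and membrane genes called higher in K562, 19 had an entry in the promoter table, and GATAA was found in 13 of their 28 promoters (46.4%), against 20.4% of all 35116 promoters of that length. CACCC was in 64.3% of them against 54.7% of all, and CCAAT in 53.6% against 32%. Among the myeloid factor, surface and granule genes called lower, 31 had an entry, and GAGGAA was found in 26 of their 58 promoters (44.8%), against 23.6% of all. GATAA was in 19% of those myeloid promoters, close to the share over all. CACCC was in 44.8% of them, but in 77.8% of the promoters of all listed granule genes. GAGGAA was in 21.4% of the promoters of the globin, heme and membrane genes called higher, but in 42.9% of those of all listed red cell membrane genes. CACCC and GAGGAA thus did not set the lineages apart in every list. The same held for GATAA when whole lists were compared. It was in 30% of the promoters of all listed heme and iron genes and 28.6% of those of all listed myeloid factors. Its share was 47.6% for listed red cell membrane genes, against 13.2% for monocyte surface genes and 5.56% for granule genes. These shares describe letters in a fixed window, and several promoters belong to the same gene.

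Of 23230 genes in the files, 15151 passed the count filter and 8079 did not. A gene that passes only through the group where it is high is favoured to differ, though not bound to. The counts and medians of the lists therefore describe the genes tested and support nothing further. The same holds for the p-values given below for such genes. Among them are GATA1, KLF1, KEL, LIN28B and HOXB2, which passed only through K562, and BCL11A, CEBPA, FLI1, HOXA10 and NLRP3, which passed only through the MLL-AF9 lines. Such genes were 8 of the 15 red cell membrane genes called higher in K562 and 8 of 8 cancer-testis antigens, and, among those called lower, 9 of 15 myeloid factors, 14 of 21 monocyte surface genes and 5 of 5 HOXA genes. Among further genes called lower they were 10 of 13 innate sensing genes, 4 of 5 eicosanoid enzymes and 3 of 5 class II genes. Other lists held fewer, such as 3 of 21 signalling and actin genes. With edgeR's quasi-likelihood test and Benjamini-Hochberg adjustment over all genes tested, 1358 genes were higher in K562 (8.96% of those tested) and 1949 were lower (12.9%), together 3307 (21.8%) at an adjusted p under 0.05. The median log2 difference over all genes tested was -0.20. In all 3307 called genes both K562 libraries lay outside the range of the 4 MLL-AF9 libraries, and over all genes tested both K562 libraries lay above that range in 28.8% and below it in 31.4%. Of the called genes, 1288 differed by more than 5 on the log2 scale, and 234 had no count at all in any library of a group. In bulk RNA, fewer cells of a type and less RNA per cell cannot be told apart. In a fit with a term per line, 30.1% of the genes were called higher and 34.6% lower in K562 than in MOLM13, and 30% and 35.9% than in THP1. When the libraries of a line were summed, so that K562 counted as 1 sample against 2 lines, no gene passed (2253 had an unadjusted p under 0.05, and the lowest adjusted p was 0.0707). Leaving out either K562 library also left no gene past the threshold (2667 without the 3R and 2716 without the Y518R library at an unadjusted p under 0.05). Without the MOLM13 3R library 1858 genes were called, and without the MOLM13 Y518R library 2154. With limma-voom, 53.7% of the calls were higher in K562, against 41.1% here.

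Sequencing gave between 22935898 and 33312593 counts on genes per library, and a floor of 3 counts corresponded to between 0.0903 and 0.142 CPM. Every value below that range rests on a few reads. Spearman's correlation over genes was between 0.986 and 0.995 within lines, 0.850 to 0.868 between MOLM13 and THP1, and 0.712 to 0.736 between K562 and either of them. These correlations are across genes, which are not independent replicates.

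Of 490 genes in 29 functional lists, 442 were tested, 78 were called higher in K562 and 138 lower. Each list is described below by its counts and its median, to be read beside the 8.96% called higher, the 12.9% called lower and the median of -0.20 over all genes tested. No list's median changed sign with other scaling factors.

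**Figure D1:**
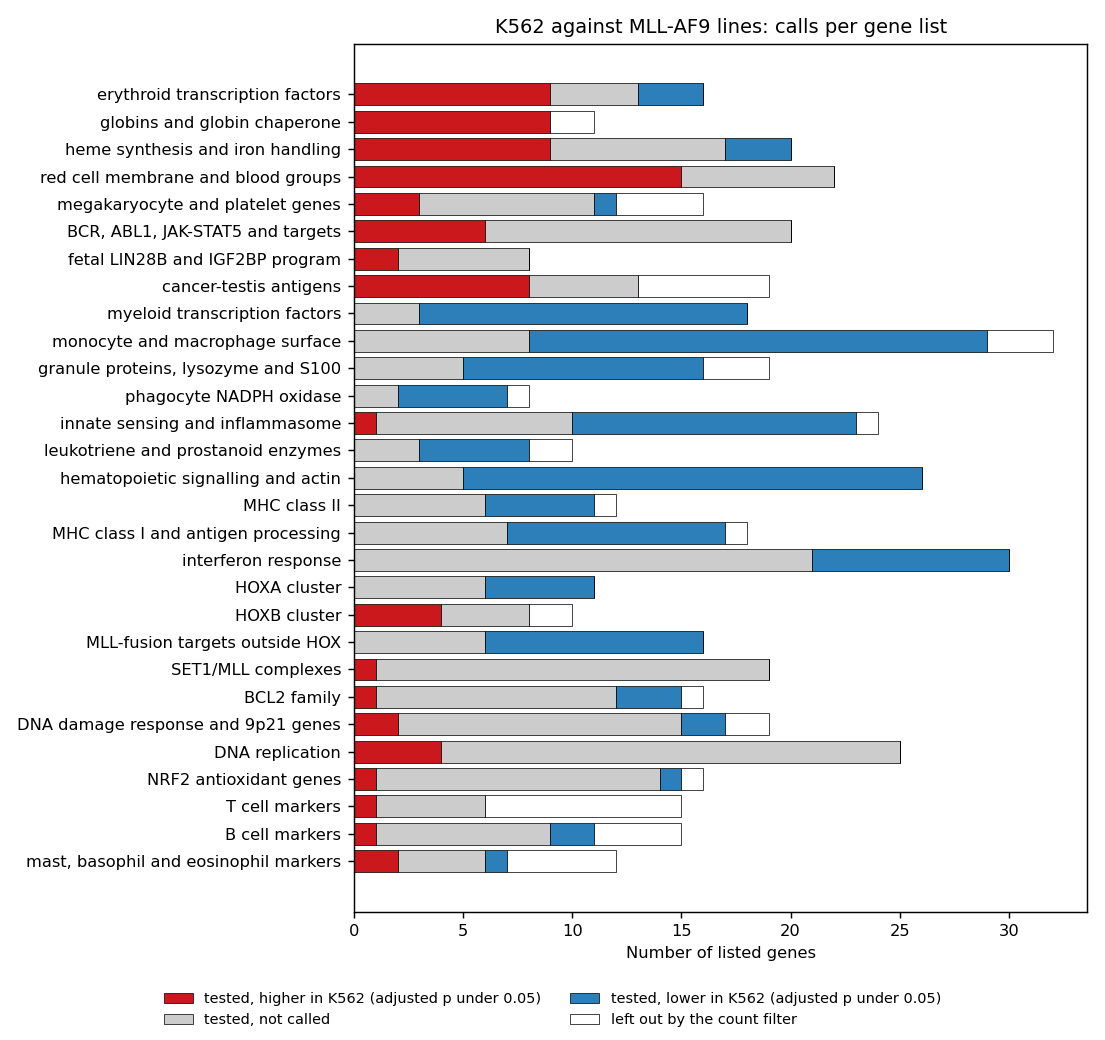
Number of genes per functional list (x axis) called higher in K562 (red), called lower (blue), tested but not called (gray) or left out by the count filter (white), by edgeR at an adjusted p under 0.05. In the myeloid factor list all 18 genes were tested and 15 were called lower, while 6 of the 9 globin list genes called higher passed the filter only through their K562 reads.

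Among 16 erythroid transcription factors, cofactors and other regulators, 9 were higher in K562, 3 were lower and 4 were not called, with a median log2 difference of 2.07. GATA1 was higher by 11.09 ± 0.95 (SE) on the log2 scale (edgeR, adjusted p = 0.00416). KLF1, which activates adult globin and membrane genes, stood at 233 and 260 CPM in K562 and at most 0.155 in the other lines (11.26 ± 0.77, adjusted p = 0.00274, edgeR). TAL1, the partner of GATA1 on DNA, was at 273 and 243 in K562 and between 0.095 and 0.837 in the others. GFI1B, a transcriptional repressor active in the erythroid and megakaryocyte lineages, was at 69.8 and 81.5 in K562. GFI1B had a single read in all MLL-AF9 libraries together, a ratio of 8432 (95% exact interval 1513 to 333109, counting error only). SOX6, a repressor of embryonic globin, was at 12.8 and 12.2 in K562 and below 0.1 in the others. All 5 of these regulators stood below 1 CPM in every MLL-AF9 library.

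Other erythroid regulators were shared by the lineages. GATA2, the progenitor factor, was at 245 and 256 CPM in K562, 18.9 and 11.2 in MOLM13, and 15 and 35.6 in THP1 (log2 difference 3.66 ± 0.48). ZFPM1, the cofactor FOG1 of GATA1, was higher by 2.67 ± 0.64, the corepressor CBFA2T3 by 1.83 ± 0.19, and TRIM58, a ubiquitin ligase of late red cell maturation, by 0.85 ± 0.18. NFE2, a factor that acts on the globin locus, was at 313 and 345 in K562, 111 and 109 in MOLM13, and 34.6 and 37.4 in THP1, and was not called (adjusted p = 0.0645). The groups did not overlap for NFE2, but MOLM13 and THP1 differed among themselves. LDB1 (log2 difference 1.96), MYB (-0.61) and IKZF1 (-0.23) were not called either.

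The 3 members that were lower were LMO2, BCL11A and RHEX. LMO2, the bridging protein of the GATA1 and TAL1 complex, was at 129 and 126 CPM in K562, 230 and 234 in MOLM13 and 297 and 232 in THP1 (-0.95 ± 0.20). BCL11A, the repressor of gamma-globin, was at 42.3 and 44.9 in MOLM13, 19.3 and 20.1 in THP1, and 0.164 and 0.0631 in K562, which is 6 reads in all (-8.13 ± 0.90, adjusted p = 0.00713, edgeR). RHEX, a regulator of erythroid cell expansion listed in the files as C1orf186, had no read in K562, while the 4 MLL-AF9 libraries held 2.33 to 9.54 CPM, at least 18.9-fold more.

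Of 11 genes for globins and their chaperone, 9 passed the count filter and were higher in K562. Of these, HBE1, HBG1 and HBG2 would pass on their MLL-AF9 reads as well, the other 6 passed only through their K562 reads, and HBB and HBM did not pass. Embryonic HBE1 and the fetal genes HBG1 and HBG2 had the highest levels. HBE1, the embryonic epsilon-globin gene, was at 2952 and 3632 CPM in K562 and between 0.873 and 1.72 in the MLL-AF9 libraries (11.25 ± 0.45). HBG2 was at 3307 and 3269 against 0.712 to 1.27 (11.68 ± 0.43), and HBG1 had a log2 difference of 11.37 ± 0.28, each with adjusted p = 0.00182 (edgeR). HBZ, the embryonic alpha-like gene, was at 213 and 290 against at most 0.251. HBA1 and HBA2, the alpha-globin genes, were at 300 and 377 and at 299 and 374 in K562. HBA1 had 3 reads in the MLL-AF9 libraries together, a ratio of 12653 (4329 to 61363). The adult beta-globin gene HBB was listed at 0 in all 4 MLL-AF9 libraries and at 0.205 and 0.126 CPM in K562, 9 reads in all, and was left out by the filter. HBD, the minor adult gene, was at 5.28 and 11.2 in K562.

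Per kilobase of exon in GENCODE 29, the K562 globin genes spanned a wide range of levels. The annotation behind the counts is not stated, so these lengths may not be those of the exons counted, and the levels per kilobase are approximate. HBG2 held 3805 and 3762 CPM per kilobase, HBE1 3072 and 3779, and HBG1 2159 and 2269, so HBG2 and HBE1 cannot be ordered. HBA1 (521 and 654) and HBA2 (519 and 650) lay below them and did not differ beyond the spread between the libraries, and HBZ followed at 282 and 383. HBD at 4.74 and 10.1 and HBB at 0.192 and 0.118 were the lowest of the beta-like genes. HBG1 with HBG2 and HBA1 with HBA2 are near-identical copies, so the split of reads within each pair is uncertain. AHSP, which chaperones free alpha-globin, was at 17 and 18.4 CPM, and HBQ1 (theta-globin) at 21.1 and 27.4, each with at most 0.05 in any MLL-AF9 library.

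**Figure D2:**
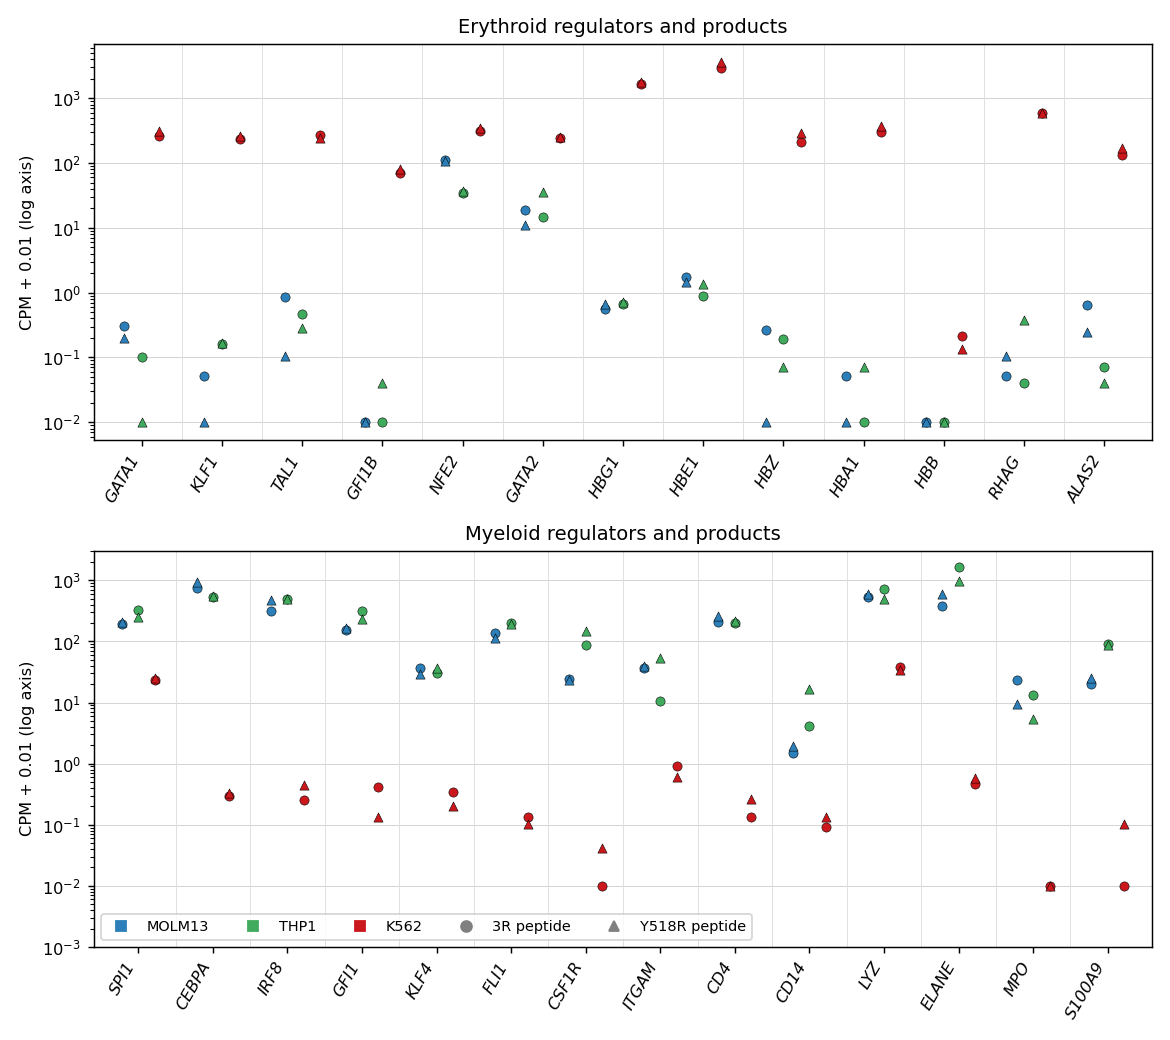
CPM plus 0.01 on a log axis for erythroid genes (upper panel) and myeloid genes (lower panel) in each library, with circles for the 3R and triangles for the Y518R peptide. K562 (red) lies far above MOLM13 (blue) and THP1 (green) for GATA1 at 265 and 315 CPM and far below them for CEBPA at 0.287 and 0.315 CPM, and points at 0.01 are libraries with no read.

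Heme synthesis differed step by step. Of 20 genes of heme and iron handling, 9 were higher in K562, 3 were lower and 8 were not called (median log2 difference 1.16). The first step uses ALAS1 in most cells and ALAS2 in red cells. ALAS2 was higher in K562 by 9.48 ± 1.12, while ALAS1 was lower, with a log2 difference of -1.83 ± 0.33 and 37.9 and 42.3 CPM in K562, 123 and 103 in MOLM13, and 192 and 158 in THP1. ALAD, the next enzyme, was also lower (-1.96 ± 0.27), at 18.6 in both K562 libraries against 57.1 to 85.6. UROD was higher, at 446 and 494 CPM in K562 against 33.4 to 55.5 (3.47 ± 0.27). UROS, which acts just before it, was not called (log2 difference -0.58), nor was CPOX (0.34), which lay at 91.9 and 99.2 in K562 between MOLM13 at 111 and 128 and THP1 at 31.1 and 31.6. PPOX (2.25 ± 0.33) and FECH, which inserts iron (192 and 205 against 14.8 to 31, 3.05 ± 0.33), were higher. Thus 4 of the 8 pathway enzymes described were called higher and 2 lower.

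Of the genes for iron uptake and transport, TFRC and SLC11A2 were higher in K562. TFRC, the transferrin receptor, was at 1507 and 1300 CPM in K562, 95 and 101 in MOLM13, and 196 and 188 in THP1 (3.27 ± 0.42, adjusted p = 0.0101, edgeR). SLC11A2, which carries iron out of the endosome, was higher by 1.33 ± 0.19, and SLC25A38, a mitochondrial glycine carrier, by 0.99 ± 0.24. SLC25A37, which carries iron into mitochondria, was at 244 and 299 in K562 and 38.3 to 117 in the others, and was not called (adjusted p = 0.086). SLC40A1, the iron exporter, was at 79.2 and 75.1 in K562, 8.31 and 8.91 in THP1 and at most 0.167 in MOLM13, also not called. FTH1, ABCB10 and STEAP3 had log2 differences of 0.72, 0.41 and 0.75 and were not called. Heme breakdown split as well. HMOX1, the inducible heme oxygenase, had no read in K562 against 1.95 to 7.89 CPM, at least 15.8-fold lower, whereas BLVRB, a biliverdin reductase of red cells, was at 381 and 394 against 25.8 to 87.1 (2.92 ± 0.54).

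**Figure D3:**
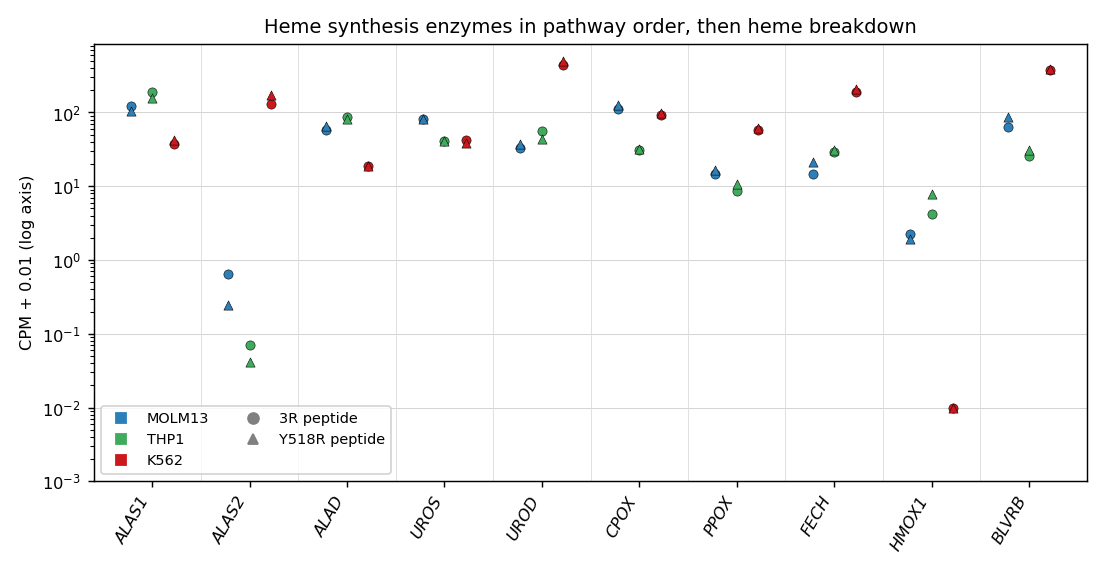
CPM plus 0.01 on a log axis for heme synthesis enzymes in pathway order from ALAS1 to FECH, then HMOX1 and BLVRB, in each library (colors are lines, circles 3R, triangles Y518R). K562 is below the other lines at ALAS1 and ALAD, where it has 18.6 CPM, and above them at ALAS2, UROD, PPOX and FECH.

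Of 22 red cell membrane and blood group genes, 15 were higher in K562, none was lower and 7 were not called, with a median log2 difference of 6.56 (6.26 with genes lacking reads in a group set at their bound). GYPB, a blood group protein of the red cell surface, had no read in any MLL-AF9 library and 11.8 and 9.02 CPM in K562, at least 63.3-fold more. RHAG was higher by 12.25 ± 0.82 and KEL by 10.43 ± 0.49 (adjusted p = 0.00182 for KEL, edgeR). SLC4A1, the anion exchanger band 3, was at 27.2 and 36.8 in K562 and had 3 reads in the MLL-AF9 libraries (ratio 1200, 410 to 5825). CA1, the red cell carbonic anhydrase, was at 39.5 and 47.2 against at most 0.285. The membrane skeleton was also higher, with ANK1 (ankyrin) at 366 and 471 against 1.23 to 7.28. GYPB belongs to a family of closely similar genes, so its counts are uncertain.

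Among the 7 not called, CA2 and AQP1, named after their values were seen, set THP1 apart from MOLM13. CA2, a carbonic anhydrase, was at 1853 and 1697 CPM in THP1, 3.1 and 5.94 in MOLM13, and 1.84 and 1.29 in K562. AQP1, the red cell water channel, was at 50.6 and 52.9 in K562, 24 and 102 in THP1, and 0.586 and 0.665 in MOLM13. Their log2 differences against both lines pooled were -9.16 ± 3.94 and 1.15 ± 2.02.

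Markers of the neighbouring megakaryocyte lineage were mixed. Of 16 genes, 12 were tested, 3 were higher and 1 was lower. ITGA2B, the platelet integrin CD41, was at 27.3 and 24.2 CPM in K562 and 0.342 to 0.753 in the others (5.42 ± 0.46). GP6, the collagen receptor, was higher by 5.92 ± 0.82 and TUBB1, platelet tubulin, by 3.99 ± 0.42. PF4, the chief platelet chemokine, was listed at 0 in all 6 libraries, and GP9 at 0 in K562 and 0.285 to 3.16 CPM in the others. FLI1, an ETS factor needed for megakaryocytes and also listed among myeloid factors, was at 136 and 115 in MOLM13, 201 and 193 in THP1, and 0.123 and 0.0946 in K562 (-10.49 ± 0.54, adjusted p = 0.00202, edgeR). FLI1 was at 69.6 to 211 CPM in the 10 libraries of the other 5 lines of the series. The list's median log2 difference was -3.70, or -0.78 with genes lacking reads in K562 at their bound.

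On the BCR-ABL axis, 6 of 20 genes were higher in K562, none was lower and 14 were not called (median log2 difference 1.31). STAT5A, a transcription factor activated by BCR-ABL, was at 665 and 708 CPM in K562, 43 and 51.2 in MOLM13, and 16.7 and 23.5 in THP1 (4.36 ± 0.51, adjusted p = 0.00816, edgeR). STAT5B was at 280 and 299 against 54.5 to 87.4 (2.08 ± 0.23). BCL2L1, the survival gene known as a STAT5 target in red cell precursors, was at 235 and 272 against 37.3 to 40.2 (2.69 ± 0.16, adjusted p = 0.00249, edgeR). PIM2, a survival kinase, was higher by 1.99 ± 0.27, ID1 by 5.66 ± 0.68 and CRKL, an adaptor phosphorylated by BCR-ABL, by 1.85 ± 0.28. BCR (142 and 178 in K562, 20.4 to 62.7 in the others) and ABL1 (299 and 341 against 75.8 to 152) did not overlap between groups and were not called, at adjusted p of 0.0737 and 0.0533. A gene-level count of BCR or ABL1 does not separate the fusion from the normal gene. EPOR, the erythropoietin receptor, was at 32.5 and 38.1 in K562, 24.4 and 20.3 in MOLM13, and 6.56 and 6.99 in THP1.

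For SOCS2 and CCND2, known STAT5 targets, and for KIT, K562 lay between the MLL-AF9 lines. SOCS2 was at 84.5 and 93.2 CPM in K562, 491 and 375 in MOLM13, and 0.903 and 1.3 in THP1. CCND2, cyclin D2, was at 92 and 91.8 in K562, 300 and 254 in MOLM13, and 0.692 and 0.497 in THP1. KIT, the stem cell factor receptor, was at 1.31 and 2.08 in K562, at most 0.712 in MOLM13, and 14.8 and 9.47 in THP1. For these 3 genes the pooled difference hides opposite differences from the MLL-AF9 lines, and none of them was called. PIM1, a survival kinase, was above both lines, at 650 and 726 in K562, 587 and 461 in MOLM13, and 19.5 and 27.9 in THP1, and was not called (adjusted p = 0.533).

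**Figure D4:**
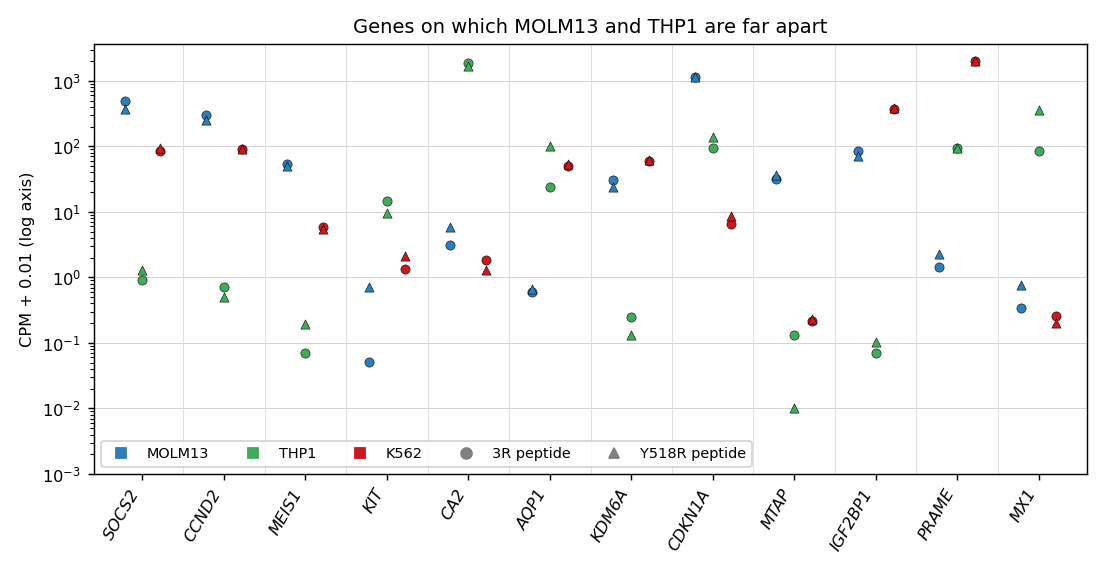
CPM plus 0.01 on a log axis in each library for genes on which MOLM13 (blue) and THP1 (green) are far apart, a display chosen after the values were seen, with circles for 3R and triangles for Y518R. K562 (red) lies between them for SOCS2, CCND2 and MEIS1, near THP1 for MTAP, and near MOLM13 for CA2.

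Fetal and germline genes were among the widest differences. LIN28B, the RNA-binding protein that maintains fetal hematopoiesis, was at 187 and 169 CPM in K562 and at most 0.0837 in the MLL-AF9 libraries (11.55 ± 0.36, adjusted p = 0.00182, edgeR). HMGA1 was higher by 1.65 ± 0.28. Of the 8 genes of that program these 2 were called (median log2 difference 1.69). IGF2BP1 was at 373 and 390 in K562, 83.9 and 71.5 in MOLM13, and below 0.1 in THP1, and IGF2BP3 (log2 difference 1.72) and IGF2BP2 (-0.58) were not called. HMGA2 had no read in K562 and was at 16.3 and 14.4 in MOLM13 and at most 0.0903 in THP1.

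Of 19 cancer-testis antigens, germline genes often active in tumors, 13 were tested, 8 were higher and none was lower. The 8 had at most 5 reads in the MLL-AF9 libraries together and passed the count filter only through their K562 reads. MAGEA3 was at 152 and 130 CPM in K562 with no read in any MLL-AF9 library, at least 916-fold more, and its near-copy MAGEA6 was at 142 and 124. PAGE5 (55.1 and 56.2), SSX1 (61.2 and 59), GAGE1 (32.8 and 33.5), MAGEA1 (38.1 and 32.1), PAGE1 (27.9 and 26.4, at least 185-fold more) and CTAG2 (13.5 and 10.3, at least 72.6-fold more) had at most 5 reads in the MLL-AF9 libraries. MAGE, GAGE, PAGE and SSX genes have close copies, so single members are uncertain. PRAME was at 1978 and 1982 in K562, 95.8 and 93.8 in THP1, and 1.42 and 2.23 in MOLM13, and was not called (5.36 ± 1.88, adjusted p = 0.106).

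Of 18 myeloid transcription factors, 15 were lower in K562 and none was higher (median log2 difference -6.72, or -5.47 with bounds). CEBPA, the factor that commits progenitors to granulocytes and monocytes, was at 751 and 956 CPM in MOLM13, 530 and 549 in THP1, and 0.287 and 0.315 in K562 (-11.15 ± 0.58, adjusted p = 0.00202, edgeR). IRF8, which directs monocyte fate, was at 312 and 481 in MOLM13, 503 and 502 in THP1, and 0.246 and 0.441 in K562 (-10.35 ± 0.48). SPI1 had a log2 difference of -3.33 ± 0.33 (adjusted p = 0.0057, edgeR). GFI1, the granulocytic paralogue of GFI1B, was at 156 to 314 in the MLL-AF9 libraries and 0.41 and 0.126 in K562 (-9.75 ± 0.73). GFI1 and GFI1B thus ran in opposite directions. KLF4 (-7.02 ± 0.46), a monocyte factor, RUNX3 (-7.30 ± 0.71), BATF (-6.41 ± 0.96), CEBPD (-4.53 ± 0.52) and VDR (-3.24 ± 0.36) were also lower.

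IRF5 had 2 reads in K562 and 41.9 to 187 CPM in the MLL-AF9 libraries, and TFEC 1 read against 34.5 to 108. Smaller differences were found for ID2 (-2.52 ± 0.29), ZEB2 (-1.41 ± 0.21) and MEF2C (-1.14 ± 0.20), which K562 held at 11.5, 112 and 84.9 CPM or more. CEBPE, a factor of late granulocytes, was at 2.22 and 2.18 in MOLM13, 8.34 and 9.69 in THP1, and 0.328 and 0.473 in K562, and was not called (adjusted p = 0.0699).

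Of 32 monocyte and macrophage surface genes 29 were tested, of which 21 were lower in K562 and none was higher (median log2 difference -8.52). CSF1R, the receptor of the macrophage growth factor, was at 24 and 23.1 CPM in MOLM13, 87 and 148 in THP1, and had 1 read in K562 (ratio 4438, 796 to 175319). CCR2 had 1 read in K562 against 10.7 to 185 CPM, and CX3CR1 2 reads against 42.7 to 111, both being chemokine receptors of monocytes. ITGAL, an integrin chain, was at 976 and 880 in MOLM13, 246 and 169 in THP1, and 0.328 and 0.536 in K562 (-10.33 ± 1.48). CD4, which human monocytes carry, was at 198 to 265 against 0.123 and 0.252 (-10.19 ± 0.39). ITGAM was at 36.5 and 39.7 in MOLM13, 10.6 and 53.8 in THP1, and 0.901 and 0.599 in K562 (-5.42 ± 0.88). CLEC7A, the beta-glucan receptor, had no read in K562, at least 14.2-fold less.

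The CD14 difference (-5.61 ± 1.42) was not called, at adjusted p = 0.0507 (edgeR), although no library overlapped. Of genes named after their values were seen, the Fc receptor FCGR2A was not called, at 53.4 and 47 CPM in K562 against 48.8 and 56.1 in MOLM13 and 93.1 and 126 in THP1, and CD33 remained at 13.2 and 12.3 against 45.1 to 60.2 (-2.07 ± 0.24).

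Granule proteins marked both MLL-AF9 lines. Of 19 such genes 16 were tested, of which 11 were lower in K562 and none was higher (median log2 difference -9.43). ELANE, neutrophil elastase, was at 377 and 602 CPM in MOLM13, 1681 and 970 in THP1, and 0.451 and 0.567 in K562 (-10.76 ± 1.13). AZU1 (640 to 2390 against 1.76 and 1.58), PRTN3 (136 to 1320 against 0.369 and 0.694) and CTSG (-10.45 ± 1.06) followed the same pattern. MPO, myeloperoxidase, was low even in the MLL-AF9 libraries at 5.43 to 23.7, with no read in K562, at least 44.2-fold less. LYZ was at 497 to 721 in the MLL-AF9 libraries and 38.2 and 33.6 in K562 (-4.03 ± 0.29), and SRGN, the granule proteoglycan, at 1043 to 1889 against 165 and 153 (-3.05 ± 0.39). S100A9, the calprotectin subunit, was at 20.1 to 91.2 with 3 reads in K562, and S100A8 had 2 reads. RNASE2, an antiviral ribonuclease of granules, had a log2 difference of -10.72 ± 1.13. VCAN was at 25.6 and 327 in the THP1 libraries, 1.05 and 0.95 in MOLM13, and at most 0.205 in K562, and was not called.

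Most phagocyte oxidase genes tested were lower in K562. Of 8 oxidase genes 7 were tested, 5 were lower and none was higher (median log2 difference -3.12), with NCF4 at 146 to 233 CPM in the MLL-AF9 libraries and 0.696 and 0.473 in K562 (-8.38 ± 0.45, adjusted p = 0.00203, edgeR). NCF1, which has near-identical pseudogenes, had a log2 difference of -8.29 ± 1.97, RAC2 of -2.23 ± 0.27 and CYBA of -1.43 ± 0.23. CYBB, the catalytic subunit, was not called. It was at 2.93 and 2.09 in MOLM13, 22.1 and 87 in THP1, and 3.11 and 1.77 in K562, so MOLM13 and K562 overlapped.

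Of 24 innate sensing genes 23 were tested, of which 13 were lower and 1 was higher (median log2 difference -4.81). NLRP3, the inflammasome sensor, was at 112 to 131 CPM in the MLL-AF9 libraries and 0.0819 and 0.126 in K562 (-10.11 ± 0.35, adjusted p = 0.00182, edgeR), and CASP1, its protease, at 24.4 to 38.1 with 1 read in K562. IRAK3, a brake on Toll-like receptor signals, was at 145 to 184 against 0.205 and 0.0631. NOD2 had no read in K562 (at least 98.5-fold less), MEFV 1 read and TNF 3 reads. The exception was NLRP1, another inflammasome sensor, at 86.4 and 100 CPM in K562 against 6.62 to 12.7 (3.34 ± 0.33).

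Of 10 eicosanoid enzymes 8 were tested, 5 were lower and none was higher (median log2 difference -5.59). PLA2G4A, which releases arachidonic acid, had a log2 difference of -6.77 ± 0.45, ALOX5AP of -9.06 ± 1.72 and TBXAS1 of -4.41 ± 0.69. LTC4S and PTGS2 had no read in K562, at least 47.4-fold and 11.3-fold less. ALOX5 was at 1.27 and 1.51 CPM in K562, 2.97 and 3.04 in MOLM13, and 10.2 and 36.7 in THP1, and was not called.

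Of 26 signalling and actin genes shared by many white cells, 21 were lower in K562 and none was higher (median log2 difference -2.93). PLEK, pleckstrin, was at 439 and 349 CPM in MOLM13, 378 and 330 in THP1, and 0.614 and 0.851 in K562 (-8.97 ± 0.38), and PTPN6, the phosphatase SHP-1, at 358 to 580 against 5.24 and 5.26 (-6.41 ± 0.32, adjusted p = 0.00191, edgeR). FES (-6.94 ± 0.71) and FGR (-6.80 ± 1.07) were lower, and PIK3R5 had 2 reads in K562. PTPRC, the common leukocyte antigen CD45, named after its value was seen, was at 190 and 173 CPM in K562 against 414 to 730 (-1.66 ± 0.33).

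Antigen presentation genes were lower in K562. Of 18 MHC class I and processing genes 17 were tested, 10 were lower and none was higher (median log2 difference -3.84). HLA-B was at 288 to 501 CPM in the MLL-AF9 libraries and 1.23 and 1.29 in K562 (-8.17 ± 0.46, adjusted p = 0.00227, edgeR), and HLA-C at 69 to 151 against 0.451 and 0.757. B2M, the shared light chain, was retained at 462 and 395 CPM against 1134 to 1784 (-1.74 ± 0.35). NLRC5, the transactivator of class I genes, was at 36.3 to 50.2 against 0.041 and 0.284 (-8.00 ± 0.87). The immunoproteasome subunits PSMB8 (-7.07 ± 0.32) and PSMB9 (-6.20 ± 0.66) and the peptide transporter TAP1 (-3.93 ± 0.83) were lower too. HLA-E, a ligand of natural killer cell receptors, was at 52.3 and 52.6 in K562, 381 and 529 in MOLM13, and 114 and 130 in THP1, and was not called.

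Of 12 class II genes 11 were tested, 5 were lower and none was higher (median log2 difference -4.06). CD74, the invariant chain, was at 145 and 182 CPM in MOLM13, 195 and 262 in THP1, and 3.77 and 3.37 in K562 (-5.76 ± 0.37). HLA-DRA (6.82 to 20.2 against 0.86 and 0.946), HLA-DMA (-4.54 ± 0.67) and HLA-DQB1 (no read in K562, at least 11.6-fold less) were low in all lines. CIITA, the class II transactivator, was at 1.09 to 2.42 in the MLL-AF9 libraries and 0.123 and 0.0631 in K562. HLA-DRB1 was at 54.8 and 71 in THP1 and 1.13 and 0.522 in MOLM13, with 3 reads in K562, and was not called. HLA genes are highly variable between people, and whether reads map evenly in different lines was not tested.

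Of 30 interferon response genes 9 were lower, none was higher and 21 were not called (median log2 difference -3.80). OAS1 had 1 read in K562 and 4.04 to 67.4 CPM in the MLL-AF9 libraries. XAF1 had a log2 difference of -8.02 ± 0.72, IFI16, a DNA sensor, of -6.69 ± 0.65, IFIT2 of -5.33 ± 1.06, DDX58, the RNA sensor RIG-I, of -4.02 ± 0.54, and SAMHD1, a dNTPase, of -3.71 ± 0.61. MX1, named after its values were seen, was at 83.6 in the 3R and 356 in the Y518R library of THP1, 0.335 and 0.76 in MOLM13, and 0.246 and 0.189 in K562. IFITM1, likewise, was higher in both K562 libraries at 419 and 426 CPM against 6.6 to 78.9, and was not called (adjusted p = 0.0511).

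The HOXA and HOXB clusters differed in opposite directions. Of 11 HOXA genes 5 were lower in K562 and none was higher (median log2 difference -8.98, or -6.96 with bounds). HOXA9, a central target of MLL fusions, was at 19 and 27 CPM in MOLM13, 12.4 and 9.59 in THP1, and had no read in K562, at least 78.1-fold less. HOXA10 was at 128 and 131 in MOLM13, 86.2 and 73.3 in THP1, and 0.123 and 0.284 in K562 (-8.97 ± 0.64, adjusted p = 0.00281, edgeR), and HOXA11 at 36.5 to 52 against 0.041 and 0.0946. HOXA13 had no read in K562, at least 158-fold less. The 6 members not called were low in THP1 as well. HOXA5 was at 31.6 and 27.4 in MOLM13 and 2.83 and 1.83 in THP1, and HOXA3 at 18.2 and 18.4 against 0.572 and 0.186, while K562 had at most 0.123 of either.

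Of 10 HOXB genes 8 were tested, 4 were higher in K562 and none was lower (median log2 difference 6.75, or 5.88 with bounds). HOXB2 was at 58 and 65.5 CPM in K562 and at most 0.332 in the MLL-AF9 libraries (10.19 ± 1.62, adjusted p = 0.0165, edgeR). HOXB4, known for expanding blood stem cells, was at 63.8 and 67.4 against 0.522 to 3.04 (5.05 ± 0.73), and HOXB3 at 31.5 and 34 against 1.09 to 4.58 (3.77 ± 0.55). HOXB6 was at 5.65 and 7.63 with 2 reads in the others. HOXB9 was at 266 and 337 in K562, 8.46 and 3.8 in MOLM13, and 0.151 and 0 in THP1, and was not called (adjusted p = 0.0737). HOXB5 had no read in the MLL-AF9 libraries and 2.46 and 3.56 CPM in K562, and was not called either. No source gives the strand setting, so reads of antisense transcripts in these clusters cannot be told apart from those of the genes.

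**Figure D5:**
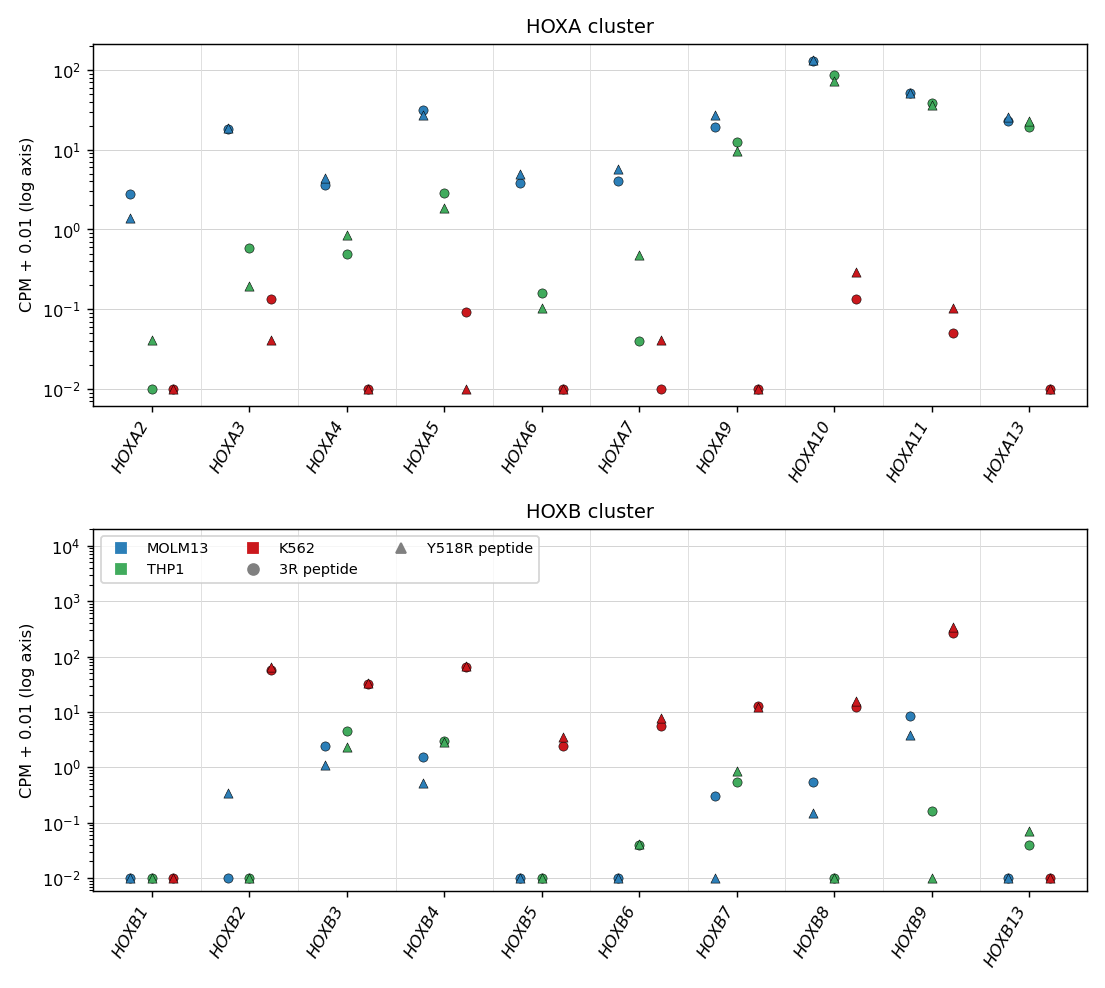
CPM plus 0.01 on a log axis for HOXA (upper panel) and HOXB (lower panel) genes in each library, with circles for 3R and triangles for Y518R. K562 (red) has at most 0.284 CPM in every HOXA column drawn and is at the top of every HOXB column from HOXB2 to HOXB9, and points at 0.01 are libraries with no read.

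Of 16 known MLL-fusion targets outside the HOX clusters, 10 were lower in K562 and none was higher (median log2 difference -2.93). PBX3, the homeobox partner of HOXA9, was at 148 and 136 CPM in MOLM13, 271 and 270 in THP1, and 1.97 and 1.29 in K562 (-7.00 ± 0.61). FLT3, the receptor kinase of early myeloid cells, was at 507 and 558 in MOLM13, 102 and 61.6 in THP1, and 0.369 and 0.0946 in K562 (-10.45 ± 1.89). RUNX2 (-6.72 ± 1.08), C10orf140 (-7.14 ± 1.01), LPXN (-4.59 ± 1.06) and CPEB2 (-3.66 ± 0.43) were lower, and GFI1, ZEB2 and MEF2C also stand in the myeloid factor list. MEIS1, the cofactor of HOXA9, divided the MLL-AF9 lines. It was at 53.3 and 49.8 in MOLM13, 0.0602 and 0.186 in THP1, and 5.86 and 5.39 in K562. CDK6 was at 241 and 188 in K562 against 352 to 631 and was not called (adjusted p = 0.0711).

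DPY30, the protein the Y518R peptide binds, was expressed in all 3 lines. The gene was at 51 and 42.7 CPM in K562, 35.5 and 36.8 in MOLM13, and 32.1 and 25.4 in THP1, a log2 difference of 0.53 ± 0.24 that was not called (adjusted p = 0.179, edgeR). None of the other core subunits was called. ASH2L, which binds DPY30, was at 298 and 303 in K562 against 121 to 192 (0.89 ± 0.25, adjusted p = 0.0629), RBBP5 had a log2 difference of 0.33 ± 0.18 and WDR5 of -0.06 ± 0.32, which became 0.04 with library totals as the scaling. Of 19 genes of these complexes (median log2 difference 0.37), SETD1A alone was called (96.6 and 118 CPM against 50.9 to 68.9, 0.86 ± 0.21). MLL was at 138 and 167 in K562 against 45.7 to 99.6 and was not called, and its count includes the part kept in the fusion. MEN1, which tethers MLL, was at 77.3 and 87.8 against 47.2 to 54.5 (adjusted p = 0.0516). KDM6A, a demethylase of the MLL3/MLL4 complexes, was at 59.9 and 62.2 in K562, 30.3 and 24.2 in MOLM13, and 0.241 and 0.124 in THP1.

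Members of the BCL2 family differed in opposite directions. BCL2 was at 74.3 and 84.9 CPM in MOLM13, 150 and 140 in THP1, and 0.86 and 2.08 in K562 (-6.32 ± 0.66, adjusted p = 0.00626, edgeR), whereas BCL2L1, which encodes BCL-XL, was higher in K562. Both encode guardians against cell death. MCL1 was at 400 and 367 in K562 and 272 to 401 in the others (log2 difference 0.15 ± 0.24), with overlap. The death-promoting genes BIK (15.9 to 20.5 CPM against 0.246 and 0.0946) and BMF (18.9 to 78.5 against 1.31 and 2.59) were lower in K562. Of 16 genes 15 were tested, and these were the 3 lower and 1 higher calls (median log2 difference -0.70).

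Cell cycle arrest and DNA damage genes were mixed. CDKN1A, the cell cycle inhibitor p21, was at 1129 and 1153 CPM in MOLM13, 93.9 and 137 in THP1, and 6.59 and 8.7 in K562. Its pooled log2 difference of -6.37 ± 1.71 was not called (adjusted p = 0.0579). Of 19 DNA damage response and 9p21 genes 17 were tested (median log2 difference -1.21), of which SESN1 (-1.99 ± 0.43) and DDB2 (-2.76 ± 0.62) were lower and XPC (1.20 ± 0.22) and FDXR (1.93 ± 0.46) higher. MTAP, which lies beside CDKN2A on 9p21, was at 32.2 and 36.1 in MOLM13, at most 0.12 in THP1, and 0.205 and 0.221 in K562. CDKN2A itself had 1 read in K562 and 6 in the MLL-AF9 libraries.

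Of 25 DNA replication genes 4 were higher in K562, none was lower and 21 were not called (median log2 difference 0.78). CDC45, a subunit of the replicative helicase, was at 373 and 411 CPM in K562 against 26.8 to 73 (2.98 ± 0.48), MCM7 was higher by 1.54 ± 0.35 and POLD1 by 1.18 ± 0.20, and RFC4, a clamp loader subunit, was at 150 and 134 against 54.4 to 83.1. Of 16 NRF2 antioxidant genes 15 were tested (median log2 difference 0.52), of which AKR1C1 was higher (35 and 35.8 against 0.151 to 1.57, 5.78 ± 0.94) and HMOX1 lower.

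Of 15 T cell markers 6 were tested, and CD3D was higher at 5.33 and 4.54 CPM in K562 against at most 0.427 (4.76 ± 1.06), while CD3E had 8 reads in each group. Of 15 B cell markers 11 were tested, of which CD22 was higher (3.81 and 3.85 against 0.181 to 0.559) and EBF1 and BLNK were lower. EBF1 was at 3.28 to 8.76 in the MLL-AF9 libraries and BLNK at 0.665 to 1.68. CD79A was at 0.614 to 1.47 in all libraries and was not called. Of 12 mast cell, basophil and eosinophil markers 7 were tested, of which ENPP3 (43.1 and 36.7 CPM in K562 against at most 0.466) and PRG2 (224 and 165 against 1.35 to 16.8) were higher and RNASE2 was lower. The summed level of that list was 206 to 623 CPM in the 6 libraries. CPA3 was listed at 0 in all 6 libraries, and HDC and MS4A2 were at most 1.77.

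Ranked by the gap between the lowest library of the higher group and the highest of the lower group, the widest genes higher in K562 included HBG2, HBA1, HBG1, MAGEA3, HBE1, PKLR, CTCFL, RHAG, GALNT5, LIN28B and HEMGN. PKLR, the pyruvate kinase of liver and red cells, was at 167 and 216 CPM in K562 and had 1 read in the MLL-AF9 libraries (ratio 21478, 3854 to 848424). HEMGN, hemogen, an erythroid nuclear protein, was at 473 and 502 against 0.12 to 0.377 (11.21 ± 0.51). CTCFL, the germline relative of the insulator protein CTCF, was at 350 and 359 against at most 0.142, and GALNT5, a glycosyltransferase, at 219 and 253 against at most 0.126. In the 10 libraries of the other 5 lines PKLR, CTCFL and GALNT5 reached at most 0.274, 0.197 and 0.0718 CPM, and LIN28B reached 35.5.

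The 12 widest genes lower in K562 were CEBPA, PARVG, BIN2, IGFBP2, RHOU, BARX1, LRP3, GPX1, PHACTR3, LPHN3, GPR124 and CD4. PARVG, gamma-parvin of leukocyte adhesions, was at 318 and 342 CPM in MOLM13, 360 and 290 in THP1, and 0.246 and 0.221 in K562 (-10.43 ± 0.32). GPX1, glutathione peroxidase, was at 461 to 674 against 0.205 and 0.599 (-10.47 ± 0.68). The other 5 lines held PARVG at 27.1 to 108 and GPX1 at 35.5 to 235, so K562 was the lowest of the 8 lines for both. BARX1, a homeobox gene, was at 223 to 489 in the MLL-AF9 libraries and at most 3.11 in the other 5 lines, and LPHN3, an adhesion receptor, at 72.2 to 138 and at most 0.104. IGFBP2 and RHOU had no read in K562, at least 484-fold and 450-fold less, and LRP3 had 1. BIN2 had 2 reads, and PHACTR3 and GPR124 were at most 0.0819 and 0.441 CPM in K562 against 102 to 159 and 324 to 413.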

How the data were processed

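The files hold counts: whole numbers of reads per gene symbol, not normalized, as deposited by the authors for 23230 genes in each library. Per the submitters' processing notes, the tools were TopHat2 2.1.1, HTSeq 0.6.1, CASAVA 1.8.4, DESeq and DESeq2 3.0, without their order, and both hg19 and GRCh38 appear as builds. The annotation and strand setting were not given in the sources used here, so overlapping and antisense genes cannot be told apart. The 5 entries that name no gene were left out. Reads on no gene were 17.7% to 25.2% of all.

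Genes with enough counts (filterByExpr, minimum 10) entered edgeR 4.0.16 under R 4.3.3 (quasi-likelihood test, TMM, peptide and group as terms), and the standard error is the size of the log2 difference over the root of F. Log2 CPM used a prior count of 2. The fit was checked on simulated data, with all libraries drawn independently, a common dispersion and no difference between lines of a group. That check cannot tell how the fit behaves when libraries share a line. limma 3.58.1 and DESeq2 1.42.0 were alternatives. Chi-square per degree of freedom within a line was 11.8 to 65.5, so no library is a copy of another. Separate cultures are not stated. A fold against a group without reads was set against 3 counts per library, and a group with 1 to 3 counts got an exact 95% interval, which covers counting error only.

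The members, lists and tests were chosen with earlier results of these data known. Named are the markers and members of lists of up to 20 genes, of longer lists the 6 called members with the largest differences and up to 3 called against the majority, the 12 widest separations each way, and DPY30 with its partners. Of those lists, members with no values of their own in the text are counted only. A few items of the rule are not reported here. Promoters were matched by symbol, and 3 list entries matched by an older symbol.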

Additional observations from a re-analysis of the deposited data

Results flagged for a closer look

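In 4 MLL-AF9 libraries, a library was set apart from the others by the gap to its neighbour over the group's range (Dixon's 95% critical value) for the genes that follow. Chance flags about 1 in 20 groups, and all 240 tested genes named in the text were examined. The genes listed are no more than that share. Dixon's test assumes independent values, which libraries of the same line are not. The highest library stood apart for CD79A (1.47 CPM, MOLM13 Y518R, next 1.06), LMO2 (297, THP1 3R, next 234), LRP3 (98.5, MOLM13 Y518R, next 80.4), IFIT2 (16.5, THP1 Y518R, next 7.62) and TRIM58 (54.3, THP1 Y518R, next 45.1). The lowest library stood apart for IFI16 (31.8 CPM, THP1 3R, next 87.2), IRF8 (312, MOLM13 3R, next 481), ITGA2B (0.342, THP1 Y518R, next 0.665) and POLD1 (97.8, MOLM13 3R, next 129).

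For 4 genes K562 differed from MOLM13 and from THP1 in opposite directions, and MOLM13 differed from THP1 in the same fit with a term per line. The comparisons share the K562 libraries. The log2 difference of K562 from MOLM13 was -1.59 for CCND2, -2.28 for SOCS2, -3.20 for MEIS1 and 2.25 for KIT. From THP1 it was 7.27 for CCND2, 6.33 for SOCS2, 5.47 for MEIS1 and -2.91 for KIT.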

How the results depend on the processing

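K562 is a single line, so what belongs to the line, its fusion or its lineage cannot be told apart, and calls rest on the agreement of libraries that share a line. All 3307 called genes that were tested in an alternative kept their direction in it, but the number called did not hold. With lines summed no gene was called (0 higher, 0 lower, 0 of the list members, 0 of the named genes; 2253 at an unadjusted p under 0.05), and with the spread from 8 summed lines 17 were (9 higher, 8 lower, 9 list members, 16 named genes). Leaving out each library in turn gave 0 to 2568 calls, 0 to 1007 higher and 0 to 1561 lower, with 0 to 198 list members and 0 to 173 named genes. The 0 came from leaving out either K562 library, which leaves 1 library in that arm, assumed to vary like the others. By number of genes, DESeq2 called 6301 (2595 higher, 3706 lower), the fit without a peptide term 5065 (2183 higher), a test against a 2-fold change 1721 (565 higher, 1156 lower), and the fit on all 16 libraries 2164 higher. Against MOLM13 alone 9813 were called (4567 higher, 5246 lower, 377 list members) and against THP1 alone 9997 (4552, 5445 and 377). Library totals moved the median of all genes by 0.115 (log2) from TMM.

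Some genes that were not called changed sign. Against THP1 alone the log2 difference was 7.27 for CCND2, 5.47 for MEIS1, 6.33 for SOCS2 and 1.74 for MTAP. Against MOLM13 alone it was 2.25 for KIT, -0.32 for CPOX and 0.34 for WDR5. With limma-voom it was 3.36 for CCND2, 1.56 for MEIS1 and 2.50 for SOCS2, and with library totals 0.041 for WDR5. The cause was not tested. Leaving out single libraries turned the sign of CCND2 (-1.03 to 2.97), MEIS1 (-2.62 to 1.49), SOCS2 (-1.74 to 2.43), KIT (-2.49 to 1.10) and WDR5 (-0.21 to 0.11). No paired analysis was possible because the labels give no replicate numbers and each line had 1 library per peptide. A level of 3 counts is 0.0903 to 0.142 CPM, depending on the library.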

Other observations

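In a further fit both libraries of each line were summed and all 8 lines of the series entered. K562 is a single line and adds nothing to the spread there, so only log2 differences from the MLL-AF9 lines are given. The genes named here were picked by edgeR's quasi-likelihood test in that fit, after those calls were seen. Those described above include HBG1 (11.44), HBG2 (11.74), HBE1 (11.33), HBA2 (10.71), RHAG (12.11) and TAL1 (9.28), which were higher. PARVG (-10.39), CD4 (-10.07) and FLI1 (-10.48) were lower.

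Also higher were KCNH2 and C7orf58. KCNH2, a potassium channel gene, was at 798 and 911 CPM in K562, 13.2 and 15.2 in MOLM13, and 6.83 and 8.54 in THP1, and reached 73.5 in the other 5 lines. C7orf58 was at 587 and 597 in K562 and at most 1.74 in any MLL-AF9 library and 0.938 in any library of the other 5 lines.

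The other lower genes were SLFN11, ITPKB, CES1, MBP and AKAP13. SLFN11, which acts when replication is stressed by DNA damage, was at 134 to 166 CPM in the MLL-AF9 libraries, 0.287 and 0.221 in K562, and 68.5 to 224 in the other 5 lines. ITPKB, an inositol phosphate kinase, had no read in K562, at least 299-fold less than the 36.7 to 61.4 CPM of the MLL-AF9 libraries, and was at 46.9 to 82.4 in the other 5 lines. AKAP13, a scaffold protein of kinase A, was at 54.8 to 65.7 against 0.287 and 0.315, with 91 to 227 in the other 5 lines, and MBP at 115 to 159 against 0.369 and 0.0631, with 61.5 to 138. For these 4 genes the K562 libraries were the lowest of all 16. CES1, a carboxylesterase of monocytes and liver, was at 182 to 311 in the MLL-AF9 libraries, 0.328 and 0.189 in K562, and at most 0.313 in the other 5 lines.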
